A study of Homo sapiens with 12 samples.

Results

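The 7 genes of the H19 and insulin-like growth factor (IGF) system were followed through 4 U2OS lines. The 7 members, all found among the 25369 genes of the count files by their symbols, were H19, IGF2, IGF1R, IGF2R, IGF2BP1, IGF2BP2 and IGF2BP3, and all 7 passed the filter on low counts. H19 led to the choice of this set because its level was higher in the R109K line only. H19 was thus chosen by measured values, its changes against the empty vector line, and is described here and not tested. U2OS is a human osteosarcoma line, and the Tet-On derivatives express a stably transfected construct when doxycycline is added. The lines carried the empty pTRE vector, HA-tagged wild-type E2F-1 (WT), HA-tagged R109K E2F-1, in which the arginine methylated by PRMT1 is a lysine, or HA-tagged R111/113K E2F-1 (KK), in which the pair of arginines methylated by PRMT5 are lysines. All 4 lines, pTRE included, received doxycycline at 1 μg/ml for 24 hours and were grown in G418 and hygromycin B, and polyadenylated RNA was sequenced from 3 biological replicates of each. Each construct was represented by 1 stable line, so construct and line cannot be told apart.

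H19 and IGF2 are neighbours on chromosome 11p15.5 and are the classic pair of reciprocally imprinted genes. In normal tissue the maternal copy transcribes H19, a long noncoding RNA that is also the host of miR-675, and the paternal copy transcribes IGF2, a fetal growth factor. IGF2 signals through the tyrosine kinase receptor IGF1R, whereas IGF2R, the cation-independent mannose 6-phosphate receptor, carries it to the lysosome. The IGF2BP proteins bind IGF2 mRNA and many other transcripts and affect their stability, transport and translation, and IGF2BP1 and IGF2BP3 are largely fetal proteins that reappear in tumors.

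The promoter of IGF2BP3 is shown because it is the one tested member that passed both thresholds below. It is the 250 bases before the start of the longest basic GENCODE transcript, read 5′ to 3′ from GRCh37, whose coordinates are those of the hg19 build used for the counts, at chr7:23510111-23510360 on the minus strand. It is printed in lower case because none of the motifs named after it was found in it.

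IGF2BP3: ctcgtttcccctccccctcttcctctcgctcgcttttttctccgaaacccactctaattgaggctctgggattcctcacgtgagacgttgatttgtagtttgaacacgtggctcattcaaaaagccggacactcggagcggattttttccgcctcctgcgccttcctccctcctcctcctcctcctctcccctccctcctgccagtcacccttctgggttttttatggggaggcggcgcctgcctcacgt

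The promoter windows of IGF2, IGF1R, IGF2R, IGF2BP1 and IGF2BP2 each held 2 or more copies of GGGCGG, and that of IGF2 held 1 CCAAT. Among 21523 promoters of the same length, 50.1% held GGGCGG and 32.8% held CCAAT on either strand. None of these 6 windows held the E2F consensus octamers TTTGGCGC, TTTCCCGC, TTTCGCGC or TTTGCCGC on either strand, which 3.11% of the 21523 promoters did. These matches describe letters in 1 window per gene and not binding.

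The H19 transcript also contains miR-675, and IGF2BP1 is a known target of the let-7 microRNA family. The mature sequences, from RefSeq on GRCh38.p14, are printed with bases 2 to 8, the seed, in capitals. The 3 seeds differ, so no 2 of these RNAs form a seed group.

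hsa-miR-675-5p: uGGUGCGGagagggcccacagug

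hsa-miR-675-3p: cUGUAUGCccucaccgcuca

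hsa-let-7a-5p: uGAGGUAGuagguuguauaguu

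The 73-base miR-675 hairpin was found at bases 1012 to 1084 of the 2305-base H19 transcript (H19-213). MIR675 had a row of its own in the count files, and it was 0 in all 12 samples. Small RNAs were not selected in these libraries, so the level of the processed microRNA was not measured.

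The libraries held 11500537 to 31040903 reads on genes. WT replicate 2 was the smallest and stood apart, with 31.2% of its reads on genes and 58.7% outside annotated features, against 59.1 to 65.7% on genes elsewhere. E2F1 reads, which may come from the construct and the endogenous gene together, checked the constructs. In CPM, counts scaled to a common library size, their mean ± SD over 3 samples was 91.2 ± 9.43 for pTRE, 1811 ± 445 for WT, 1158 ± 196 for R109K and 1316 ± 187 for KK. The abundant osteoblast-lineage transcripts COL1A1 and SPARC were present throughout, while SP7, the osteoblast transcription factor, had no read in pTRE or R109K. Mean levels of the other markers in pTRE were 17.0 CPM for RUNX2, 10.9 for SPP1, 1.18 for ALPL, 0.290 for COL1A2 and 0.131 for BGLAP. COL1A1 and SPARC thus made up most of the summed level in each line. The summed level of 8 osteoblast markers was 4695 to 5895 CPM for pTRE, 1025 to 1397 for WT, 1595 to 1745 for R109K and 1268 to 1505 in KK. The part of this shift in the results below was not tested. For 11 markers of other cell types, the summed level was 14.9 to 18.96 CPM for pTRE, 15.2 to 20.0 for WT, 18.6 to 21.5 for R109K and 17.2 to 21.8 in KK, and the epithelial marker EPCAM made up most of it. Of the 5 of these markers that were tested, 2 were called in R109K against pTRE (40%, against 7.19% of all tested genes). AFP, a fetal liver protein, was at 2.17 to 3.26 CPM for pTRE and 4.67 to 6.69 CPM for R109K and rose by 1.05 on the log2 scale (adjusted p = 0.00383 in edgeR), and DES, a muscle filament gene, fell by 2.01 at 3 to 27 reads per sample. Neither direction was particular to R109K. AFP was at 3.69 to 5.41 CPM for WT and 4.38 to 6.87 CPM for KK, above every pTRE sample. DES was below every pTRE sample in WT and KK too. It was called in KK, at a log2 fold change of -1.615, while 0 of the 5 tested markers were called in WT. The part of the AFP and DES shifts in the H19 values was not tested. ALB, TTR, CGA and GH1 had no read in pTRE. By a chi-square statistic per degree of freedom, replicate 2 was the farthest from its fellows in WT (55.9 and 56.6, against 13.8 between the other two), R109K (30.8 and 21.8, against 10.2) and KK (50.6 and 36.1, against 8.85).

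Per kilobase of the longest basic transcript, the members spanned more than 2 orders of magnitude. In pTRE, IGF2BP2 was highest at 54.8 ± 2.06 CPM per kilobase (n = 3). IGF2R followed at 27.4 ± 3.41 and IGF1R at 11.6 ± 0.297. The lower members were H19 at 2.19 ± 0.387, IGF2BP3 at 1.12 ± 0.168, IGF2BP1 at 0.640 ± 0.0633 and IGF2 at 0.356 ± 0.0336. The mean ± SD ranges of neighbours in this order did not overlap in pTRE. IGF2BP2 took 93.3 to 96.2% of the reads on the 3 IGF2BP genes in every sample.

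H19 (chr11:2016396-2025782, minus strand, GRCh37; long noncoding RNA) was measured in CPM at 4.05, 5.32 and 5.77 in the 3 pTRE samples. It stood at 5.34, 3.93 and 4.52 in WT and at 7.40, 8.02 and 5.21 in KK. In R109K it was 11.5, 11.7 and 11.3. All 3 R109K samples were above the other 9 samples, whereas WT and KK each overlapped pTRE. Replicates of R109K and pTRE did not overlap in either direction for 47.2% of all tested genes, and for 24.3% R109K was the higher. The share of genes with R109K above all other 9 samples was not counted. In bulk RNA, more cells with H19 and more H19 per cell cannot be told apart. The R109K values also lay closest together, with an SD of 0.200 CPM around 11.5, against 0.892 around 5.05 in pTRE. As log2 fold changes against pTRE, with no test, H19 was at 1.19 in R109K, 0.44 in KK and -0.12 in WT. Directly compared, R109K stood 1.31 above WT and 0.75 above KK on the log2 scale. These values rest on 277 to 354 H19 reads per R109K sample and 49 to 214 in the other samples.

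IGF2 (chr11:2150342-2179621, minus strand), the growth factor that shares the locus, had another order. Its level was 1.90, 1.86 and 2.20 CPM in pTRE and 2.11, 1.78 and 2.21 CPM in R109K. It was 3.21, 3.13 and 4.12 CPM in WT and 2.70, 3.02 and 3.43 CPM in KK. Every WT and KK sample was above every pTRE and R109K sample, while pTRE and R109K overlapped. Over all genes, edgeR's quasi-likelihood test with Benjamini-Hochberg adjustment gave a log2 fold change of 0.82 (SE 0.21) in WT against pTRE (adjusted p = 0.00673). That passed the adjusted p of 0.01 but not the 2-fold limit, which together define a called gene. The adjusted p did not stay under 0.01 in edgeR under every alternative. It was 0.0110 without the filter on low counts, 0.0286 from the 6 samples compared alone, and 0.00403 to 0.0388 with each sample left out in turn. KK against pTRE gave 0.61 (SE 0.21, adjusted p = 0.0332) and R109K against pTRE gave 0.030 (95% interval -0.43 to 0.49, adjusted p = 0.942). R109K against WT was -0.79 (95% interval -1.24 to -0.33) with an adjusted p of 0.0545 in edgeR, which misses the threshold. R109K against KK was -0.59 (95% interval -1.04 to -0.13, adjusted p = 0.224).

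**Figure D1:**
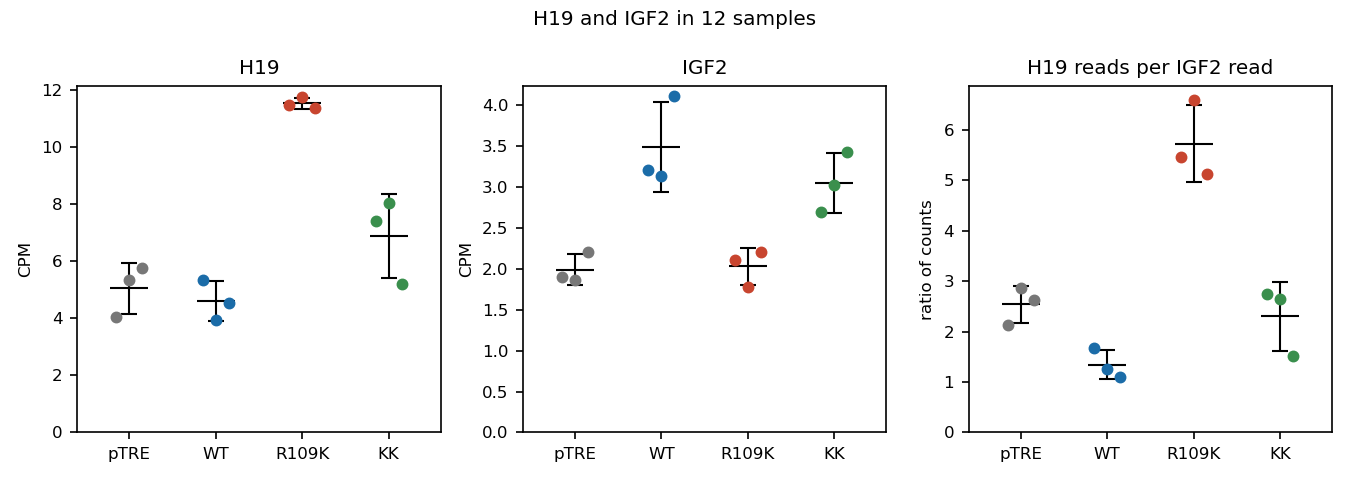
H19 (left) and IGF2 (middle) in CPM and the number of H19 reads per IGF2 read (right) for the 3 samples of each line (points), with mean and SD (bars). H19 in the 3 R109K samples was 11.3 to 11.7 CPM, above the other 9 samples, while IGF2 in R109K was 1.78 to 2.21 CPM, overlapping pTRE and below WT and KK.

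Counting H19 against IGF2 within a sample removes the scaling between libraries. There were 2.13, 2.86 and 2.62 H19 reads per IGF2 read in pTRE. The ratio was 1.67, 1.26 and 1.10 in WT, 2.74, 2.65 and 1.52 in KK and 5.45, 6.59 and 5.13 in R109K. R109K was above all other samples and WT was below all pTRE and R109K samples, and the KK samples fell in the ranges of pTRE and of WT. The ratio contains the H19 counts that led to the choice of genes, so it too is a description.

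The IGF2 counts may be a lower bound. INS-IGF2, a read-through gene of the same strand, shares 80% of its exon bases with IGF2, which is 20.4% of the IGF2 exon bases, and its row was 0 in all 12 samples, as was that of INS. Counters that set aside reads falling on more than 1 gene would drop reads in the shared part. IGF2-AS, transcribed from the opposite strand, has 11.6% of its exon bases opposite IGF2 exons, and whether strand was used in counting is not given in the sources used here.

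The 2 receptors took different directions, with no call for either. IGF1R (chr15:99191768-99507759, plus strand), the signaling receptor, was at 137, 143 and 144 CPM in pTRE and at 180, 228 and 181 CPM in WT. It was at 168, 127 and 165 CPM in R109K and at 200, 143 and 186 CPM in KK. The WT samples were all above pTRE, and the R109K and KK samples overlapped pTRE. In edgeR the log2 fold change in WT against pTRE was 0.47 (SE 0.15, adjusted p = 0.0205), and those of R109K (0.11, adjusted p = 0.621) and KK (0.32, adjusted p = 0.110) also missed the threshold. DESeq2 gave an adjusted p of 0.00733 for WT, which passes 0.01, at the same size of change.

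IGF2R (chr6:160390114-160534539, plus strand), the clearance receptor, was at 330, 416 and 411 CPM in pTRE. In WT it was at 272, 345 and 319 CPM, in R109K at 278, 209 and 281 CPM and in KK at 297, 211 and 299 CPM. All R109K and KK samples were below all pTRE samples, whereas WT overlapped pTRE. The log2 fold change against pTRE was -0.59 (SE 0.16, adjusted p = 0.0136 in edgeR) in R109K, -0.52 (SE 0.16, adjusted p = 0.0217) in KK and -0.30 (SE 0.16, adjusted p = 0.150) in WT, so none was called. In DESeq2 the adjusted p was 0.00233 in R109K and 0.00830 in KK, both under 0.01 and below 2-fold. There were 2.40 to 2.91 IGF2R reads per IGF1R read in pTRE and 1.48 to 1.77 in the 9 samples with an E2F1 construct, with no overlap. Among single tested genes, 51.5% in WT, 47.2% in R109K and 49.4% in KK did not overlap pTRE. The share among ratios of gene pairs was not counted, so this ratio is a description. Replicate 2 had the lowest level of both receptors among the R109K samples and again among the KK samples.

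The IGF2BP family differed more between its members than between lines. IGF2BP3 (chr7:23349828-23510110, minus strand), an oncofetal RNA-binding protein, was at 5.04, 3.99 and 5.36 CPM in pTRE. It was at 9.33, 12.1 and 8.24 CPM in WT, at 6.84, 6.54 and 6.51 CPM in R109K and at 9.55, 6.77 and 6.55 CPM in KK. Every sample with an E2F1 construct was above every pTRE sample. IGF2BP3 rose in WT against pTRE by 1.03 on the log2 scale (SE 0.19, adjusted p = 5.89e-04 in edgeR), the 1 call among the 6 tested members in that comparison, where 11.8% of all 16625 tested genes were called. R109K against pTRE was 0.47 (SE 0.19, adjusted p = 0.0826) and KK against pTRE 0.67 (SE 0.19, adjusted p = 0.0121). The call stood close to the 2-fold limit and was lost on fold without pTRE replicate 2 (0.91, adjusted p = 0.00478) or without WT replicate 2 (0.87, adjusted p = 0.00157).

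IGF2BP2 (chr3:185360918-185542830, minus strand), the dominant family member, was at 236, 243 and 225 CPM in pTRE and at 296, 295 and 276 CPM in WT. It was at 272, 269 and 284 CPM in R109K and at 265, 284 and 296 CPM in KK. The samples of all 3 E2F1 lines were above the pTRE samples, by 0.30 in WT (SE 0.10, adjusted p = 0.0290 in edgeR), 0.23 in R109K (SE 0.10, adjusted p = 0.111) and 0.26 in KK (SE 0.10, adjusted p = 0.0556) on the log2 scale. No sample stood out, and none passed the adjusted p of 0.01 in edgeR. In DESeq2 the adjusted p was 8.09e-04 in WT and 0.00288 in KK, under 0.01, with the change still far below 2-fold.

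IGF2BP1 (chr17:47074747-47133507, plus strand), the third family member, was at 5.16, 5.47 and 6.24 CPM in pTRE and at 6.59, 9.07 and 6.29 CPM in WT. It was at 5.15, 4.87 and 6.63 CPM in R109K and at 6.23, 5.57 and 8.29 CPM in KK. WT was above pTRE by a narrow margin, and R109K and KK overlapped pTRE. The log2 fold change against pTRE was 0.36 (95% interval -0.063 to 0.78) in WT, -0.023 (95% interval -0.44 to 0.40) in R109K and 0.25 (95% interval -0.17 to 0.67) in KK, with adjusted p of 0.161, 0.951 and 0.348 in edgeR. Without WT replicate 2, the highest of its line and the library with few reads on genes, the WT value was 0.19, and without KK replicate 3 the KK value was 0.067.

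**Figure D2:**
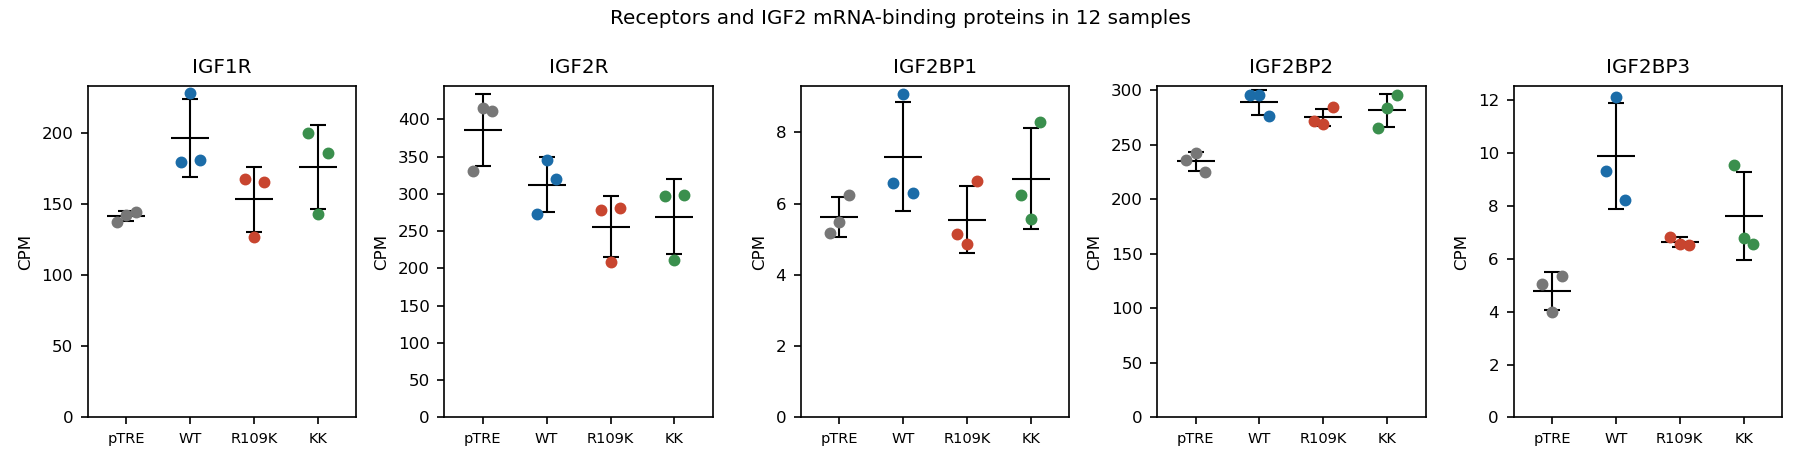
Levels in CPM of the receptors IGF1R and IGF2R and of IGF2BP1, IGF2BP2 and IGF2BP3 in the 3 samples of each line (points), with mean and SD (bars). IGF2R was lower and IGF2BP2 and IGF2BP3 were higher in all R109K and KK samples than in the pTRE samples.

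For the link of the IGF2BP family to let-7, the complement of the let-7 seed, CTACCTC, was located in the longest basic transcript of each member. IGF2BP1 held 4 matches in its 3′ untranslated region, IGF2BP2 and IGF2BP3 held 1 each there, and the receptors held 3 (IGF1R) and 2 (IGF2R) in all. IGF2 held 1, near its 5′ end, and H19 held none. Only 1 transcript per gene was searched, so sites in other transcripts are not counted. By the same rule HMGA2, a let-7 target, held 1 match in its 5′ untranslated region and 0 in its 3′ one. LIN28B and TRIM71 held 5 and 7 in all. Of 21524 transcripts, 20.8% held at least 1, and of those within 10% of the length of IGF2BP1, 43.4% did. At the lengths of IGF1R and IGF2R the share was 57.2% and 64.4%. It was 26.5% at those of IGF2BP2 and IGF2BP3, 32.2% at that of IGF2 and 16.5% at that of H19. The IGF2BP sites are shown because IGF2BP1 held more than its relatives, and the match is in capitals.

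IGF2BP1 site 1: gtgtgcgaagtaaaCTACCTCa

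IGF2BP1 site 2: agcagtgctagtaaCTACCTCa

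IGF2BP1 site 3: tataaatggattaaCTACCTCa

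IGF2BP1 site 4: cacttttgttttatCTACCTCt

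IGF2BP2 site: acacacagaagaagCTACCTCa

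IGF2BP3 site: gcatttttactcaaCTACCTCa

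All but the fourth IGF2BP1 site continue with an A after the match. IGF2BP1, with the most sites, was the member of the family with the lowest level per kilobase in every line, at 0.631 to 0.832 CPM per kilobase. IGF2BP2 and IGF2BP3, with 1 site each, were at 54.8 to 67.5 and at 1.12 to 2.32 CPM per kilobase, so the family's levels differed widely at an equal number of sites. No let-7 level was measured, and the part of these sites in the levels was not tested.

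Across the 6 members that could be tested, 1 was called in WT against pTRE, 0 in R109K against pTRE, where 7.19% of all tested genes were called, and 0 in KK against pTRE, where 10.9% were. All 3 comparisons share the pTRE samples. At an unadjusted p under 0.05 the edgeR counts were 4 in WT, 3 in R109K and 4 in KK, where 49%, 38.6% and 45.6% of all tested genes passed. DESeq2 called 1, 0 and 0 members, and 11.5%, 7.05% and 10% of the genes it tested. Replicates did not overlap for 5 members in WT, 3 in R109K and 4 in KK, against 51.5%, 47.2% and 49.4% of all tested genes. The median log2 fold change of the 6 members was 0.41 in WT, 0.072 in R109K and 0.29 in KK, against medians of 0.0022, -0.00074 and -0.0091 over all tested genes.

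Between the E2F1 lines, no tested member was called in R109K against WT, KK against WT or R109K against KK, in which 0.343%, 0.00602% and 0.0902% of genes were. DESeq2 called none of them either, and 0.831%, 0.022% and 0.397% of the genes it tested. The edgeR counts of members at an unadjusted p under 0.05 were 3, 0 and 1, where 22.3%, 8.51% and 12.4% of all genes passed. The 6 members were all below a log2 fold change of 0 in each of these comparisons, with medians of -0.37, -0.18 and -0.20. The medians over all tested genes were -0.0092, -0.014 and 0.0033. The comparisons share samples, so their signs are not independent. WT replicate 2 was the highest WT sample for IGF1R, IGF2R, IGF2BP1 and IGF2BP3. H19 was above 0 in all 3 comparisons, but its choice for a high level in R109K favoured this sign in those with R109K. IGF2, IGF1R and IGF2BP3 did not overlap between R109K and WT, each lower in R109K, where 27.1% of all genes did not overlap in either direction. In R109K against KK only IGF2 did not overlap, where 21% of all genes did not, and in KK against WT no member was free of overlap, where 9.97% of all genes were.

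**Figure D3:**
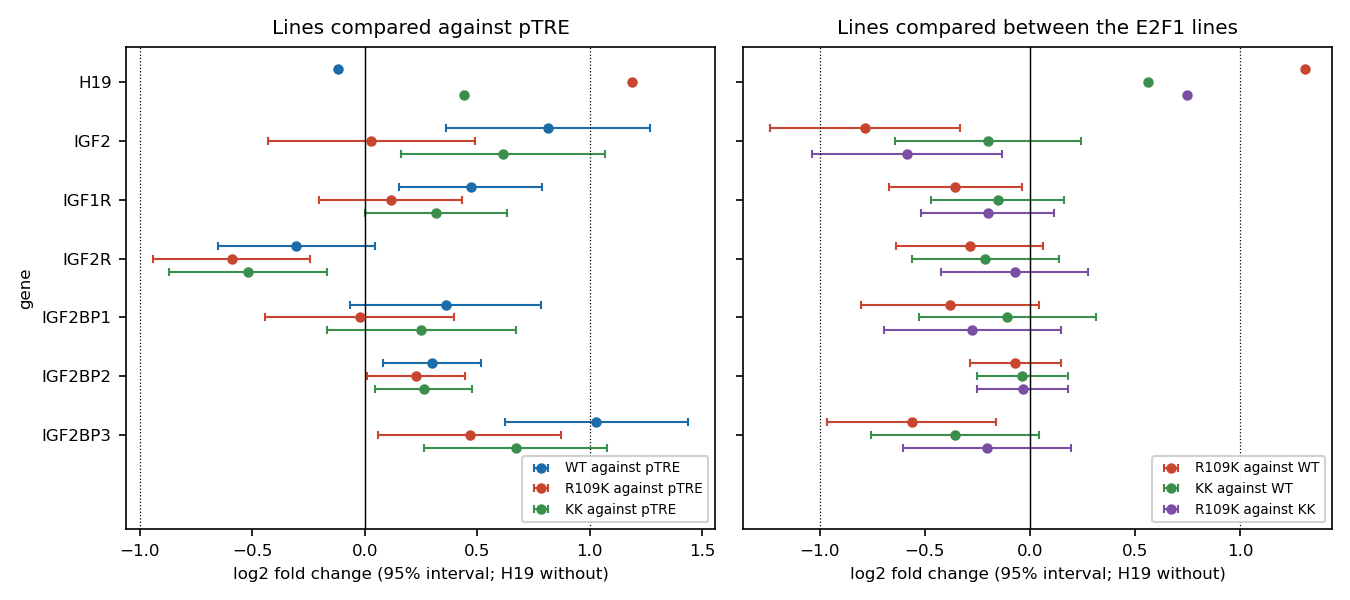
Log2 fold changes of the 7 members between each E2F1 line and pTRE (left) and between the E2F1 lines (right), with 95% intervals from the edgeR fit for the 6 tested members; dotted lines mark 2-fold. H19 is a point without an interval because its values led to its choice, and it lies at 1.19 in R109K against pTRE while the other members lie at 0.47 or below there.

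Other genes of the IGF pathway were called in all 3 comparisons with pTRE. Of 41 listed ligands, receptors, binding proteins with their proteases, and signaling genes, 35 were tested, IGF2, IGF1R and IGF2R among them. In WT against pTRE 8 rose and 3 fell, in R109K 5 rose and 1 fell and in KK 5 rose and 2 fell. As a share of those tested this was 31.4%, 17.1% and 20%, against 11.8%, 7.19% and 10.9% of all tested genes. This list and those below were drawn up with earlier results of these data known. The shares are thus a description and not a test of the lists. The median log2 fold change of the list was 0.36, 0.094 and 0.069.

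The secreted IGF-binding proteins, which hold IGFs in the extracellular space, went in both directions. IGFBP5, abundant in bone, was at 94.4 to 111 CPM in pTRE, 8.66 to 20.3 CPM in WT, 8.47 to 13.6 CPM in R109K and 13.3 to 22.4 CPM in KK. All 9 E2F1 samples were below all pTRE samples. IGFBP5 fell in all 3 lines, with log2 fold changes of -2.88 (SE 0.28, adjusted p = 1.59e-06 in edgeR) in WT, -3.26 (SE 0.28, adjusted p = 1.06e-06) in R109K and -2.59 (SE 0.27, adjusted p = 3.58e-06) in KK. IGFBP4 rose in all 3 lines, by 1.32, 1.54 and 1.54. IGFBP6, which prefers IGF2 as its ligand, fell in WT by 1.13 (adjusted p = 4.08e-04 in edgeR). In R109K and KK it was not called, at 61.3 to 81.1 and 56.0 to 96.2 CPM. All of these samples were also below the 104 to 138 CPM of pTRE. IGFBP7, a distant relative with low affinity for IGFs, rose in R109K by 1.65 (SE 0.28, adjusted p = 3.83e-04 in edgeR). It stood at 8.52 to 12.9 CPM in R109K against 3.27 to 4.09 in pTRE, 4.20 to 8.38 in WT and 4.50 to 8.76 in KK, and R109K against WT (0.90, adjusted p = 0.0754 in edgeR) and against KK (0.71, adjusted p = 0.245) missed the threshold.

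PAPPA2, a protease that cuts IGF-binding proteins, rose in WT (1.93, SE 0.34), R109K (1.32, SE 0.34) and KK (1.85, SE 0.34), and its relative PAPPA rose in WT (1.04, SE 0.26). PAPPA was not called in R109K (2.62 to 4.73 CPM) or KK (3.89 to 6.12 CPM), against 2.39 to 3.12 CPM in pTRE. The KK samples were all above pTRE, and R109K overlapped it. STC1, a stanniocalcin that inhibits these proteases, fell in WT by 1.49 and in KK by 1.73, and was at -1.02 (adjusted p = 0.0136 in edgeR) in R109K. Of the insulin receptor, INSR, the level was 22.3 to 24.9 CPM in pTRE and 43.99 to 57.5 CPM in WT. INSR rose in WT (1.03, SE 0.14) and passed the adjusted p but not the fold in R109K (0.62, adjusted p = 0.00366) and KK (0.93, adjusted p = 1.09e-04).

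Downstream of the receptors, 4 of 19 tested signaling genes rose in WT, 2 in R109K and 3 in KK, and none fell. These are 21.1%, 10.5% and 15.8% called, against 11.8%, 7.19% and 10.9% of all tested genes. In each line 9 of the 19 were above 0, with medians of -0.011, -0.013 and -0.013. FOXO1, a transcription factor held inactive by IGF and insulin signaling, rose by 2.15 (SE 0.21) in WT, 1.16 (SE 0.21) in R109K and 1.73 (SE 0.21) in KK. FOXO3, its relative, rose in WT (1.03, SE 0.13). FOXO3 was not called in R109K (55.3 to 61.6 CPM) or KK (61.8 to 76.8 CPM). These samples too were all above pTRE (41.9 to 49.6 CPM). IRS4, an adaptor of the insulin receptor substrate family, rose in all 3 lines (2.42, 1.88 and 2.11, SE 0.39 each) from 0.304 to 0.620 CPM in pTRE. GAB1, a docking protein, rose in WT (1.25) and KK (1.07). In R109K it was not called, at 20.35 to 23.4 CPM against 11.3 to 11.8 CPM in pTRE.

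**Figure D4:**
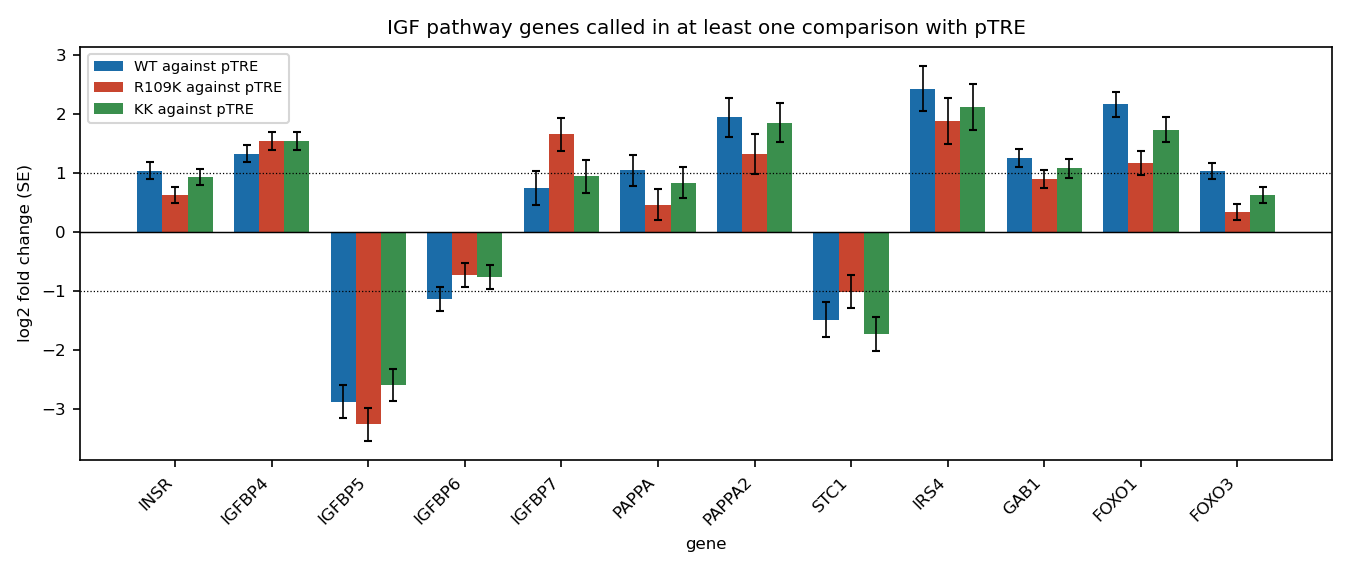
Log2 fold changes against pTRE, with SE, of the 12 genes of the IGF pathway lists that were called in at least 1 of the comparisons; dotted lines mark 2-fold. IGFBP5 lies between -3.26 and -2.59, and FOXO1 and IRS4 rose by 1.16 or more in all 3 lines.

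The genes around H19 were then examined for a shared direction. Of the 22 tested genes whose midpoints lay within 1 Mb of H19, 9 were above 0 in R109K against pTRE, with a median log2 fold change of -0.11. In that comparison 1 of the 22, SLC22A18, was called, and it was lower, beside 7.19% of all tested genes called. The median of the same genes was -0.088 in R109K against WT and -0.052 in R109K against KK. MRPL23-AS1, the nearest tested gene downstream, was at -0.13 (adjusted p = 0.779) in R109K against pTRE in edgeR and was named for its position.

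CDKN1C, an imprinted inhibitor of cyclin-dependent kinases at the other end of the cluster, was ordered as IGF2 was. Its level was 3.72, 3.69 and 3.89 CPM in pTRE, 20.0, 10.7 and 10.2 CPM in WT, 12.1, 15.6 and 11.2 CPM in KK and 7.10, 9.41 and 5.61 CPM in R109K. R109K lay between pTRE and the other lines with no overlap on either side. CDKN1C rose in WT by 1.87 (SE 0.26, adjusted p = 4.46e-05 in edgeR) and in KK by 1.78 (SE 0.26, adjusted p = 6.94e-05). In R109K it was at 0.97 (SE 0.26, adjusted p = 0.0106), and R109K against WT was -0.90 (adjusted p = 0.0565). SLC22A18, a transporter gene of the same cluster, fell in WT by 1.07 and in R109K by 1.14 and was at -0.83 in KK.

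**Figure D5:**
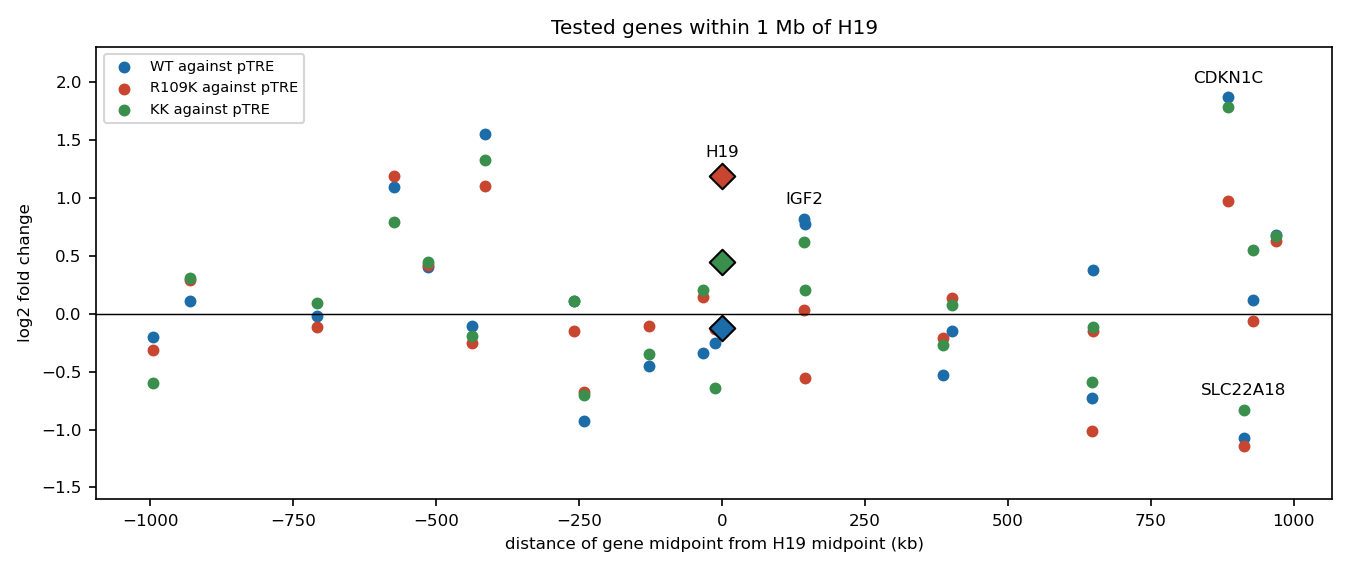
Log2 fold change against pTRE of H19 (diamonds) and of the 22 tested genes within 1 Mb (circles), by the distance of their midpoints from that of H19 in kilobases, for WT, R109K and KK. H19 lies at 1.19 in R109K, where 9 of the 22 neighbours are above 0.

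Genes at 11p15.5 and imprinted genes elsewhere were compared in the same way. This combined list held 28 neighbours of H19 at 11p15.5, taken by position whether imprinted or not, and 25 genes elsewhere listed as imprinted. Expression by allele was not measured for any of them, IGF2R included. Of these 53 genes, 33 were tested, IGF2 and IGF2R among them. In WT 2 rose and 2 fell, in R109K 1 rose and 2 fell, and in KK 2 rose. The shares called were 12.1%, 9.09% and 6.06%, beside the same background shares, and the list medians were -0.24, -0.11 and -0.061. Of the imprinted genes elsewhere, 17 were tested, and 2, 2 and 1 were called in WT, R109K and KK (11.8%, 11.8% and 5.88%). PEG10, a paternally expressed gene derived from a retrotransposon, rose most in each line. Its level was 7.90, 8.93 and 10.0 CPM over the pTRE samples, 44.3 to 65.9 CPM for WT, 47.3 to 63.3 CPM for R109K and 41.9 to 63.4 CPM for KK. Its log2 fold changes were 2.70, 2.57 and 2.51 (SE 0.20 each), and the ranges of the 3 lines overlapped. DIRAS3 fell in WT by 1.57 and NAP1L5 fell in R109K by 1.02, both at low counts. Neither fall was particular to the line with the call, since every sample of the other E2F1 lines was also below every pTRE sample. The highest DIRAS3 sample had 0.491 CPM for R109K and 0.624 CPM for KK, while the lowest pTRE sample had 0.661. For NAP1L5 the highest sample had 2.03 CPM for WT and 2.45 CPM for KK, while the lowest pTRE sample had 2.77. Without pTRE replicate 3 the number called fell to 2 in WT and 1 in R109K, and without WT replicate 1 it fell to 2 in WT.

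Of 14 tested genes that maintain imprints or act at the H19 locus, SMCHD1, a chromatin protein of X-inactivation and imprinted clusters, was the 1 called in WT (1.10, SE 0.19, adjusted p = 2.95e-04 in edgeR), beside 11.8% of all tested genes. In R109K and KK, SMCHD1 was at 0.67 (adjusted p = 0.0134) and 0.79 (adjusted p = 0.00369), below 2-fold.

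Genes were also ranked by the likeness of their log2 CPM to that of H19 over the 12 samples, among the 13304 tested genes whose counts averaged 50 or more. The 5 most alike by Pearson's r were DBNDD1 (0.967, Spearman's rho 0.888), COASY (0.936, rho 0.909), NMT1 (0.932, rho 0.888), VPS25 (0.930, rho 0.923) and UCP2 (0.927, rho 0.825). DBNDD1 was at 25.2 CPM in R109K on average, against 14.5 in pTRE, 14.2 in WT and 18.7 in KK. For IGF2 the 5 most alike were STX1A (0.906), ABCC9 (0.901), SLAMF7 (0.900), NLRP3 (0.896) and GALNT16 (0.896). STX1A was at 34.4 CPM in WT and 32.0 in KK, against 17.1 in pTRE and 19.6 in R109K. The samples share depth and the differences between 4 lines, so these coefficients describe order and carry no test.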

How the data were processed

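The authors trimmed the reads with Trim Galore 0.4.3 and aligned them to hg19 with STAR 2.5.1 and used DESeq2 1.16.1 for their own tests. They deposited 1 file of raw read counts per sample (12 samples, 4 lines, 3 replicates each), and 5 summary lines per file that name no gene were left out. These lines held 58.7% (WT replicate 2) and 23.6 to 29.6% (other samples) of reads outside features and 0.866 to 2.16% on more than 1 gene. The gene annotation and strand setting of the counting are not given in the sources used here.

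Counts were fitted with edgeR 4.0.16 in R 4.3.3: TMM scaling, filterByExpr (16625 genes kept), 1 mean per line over all 12 samples, the quasi-likelihood test, and Benjamini-Hochberg adjustment over all kept genes. A gene was called at an adjusted p under 0.01 and a change over 2-fold. SE and 95% intervals come from the same fit, and CPM use TMM library sizes. The code was tested on simulated data. Positions and transcripts are from GENCODE v44 lifted to GRCh37. Intervals and p-values set differences between lines against the spread between replicate cultures, estimated from all 12 samples and moderated across genes. With 1 line per construct, they do not cover the spread between independent lines.

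The members and gene lists were chosen with earlier results of these data known. Named genes were the 7 members, E2F1, at most 4 called genes of each list with the largest fold change, and the 5 genes most like H19 and most like IGF2; further genes were named after their values were seen. Alternatives were DESeq2 1.42.0, other filters and scalings, a test against 2-fold, a replicate block and leaving out each sample.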

Additional observations from a re-analysis of the deposited data

How the results depend on the processing

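Depth limits IGF2 most, which was counted with 39 to 114 reads per sample, while H19 had 49 to 354. Of the results without a single sample left out, the direction was kept throughout, and counts moved most under the test against the 2-fold limit itself. There the called members in WT against pTRE went from 1 to 0. IGF pathway genes went from 11, 6 and 7 to 3, 1 and 3 in WT, R109K and KK. Genes of the combined list of 11p15.5 and imprinted genes went from 4, 3 and 2 to 1, 1 and 1. Apart from DESeq2, the share of all tested genes called was not counted for the alternatives in this section. The counts thus describe the lists only. Other settings moved these counts by at most 1. DESeq2 and the fit without a filter each called 3 genes of the combined list in WT and in KK and 7 IGF pathway genes in R109K. A minimum of 10 counts gave 10, 5 and 6 IGF pathway genes and 3 genes of the combined list in WT. The replicate numbers were not taken to pair the samples, since not every same-numbered pair deviated together (same-numbered samples correlated at 0.0436 on average, from -0.295 to 0.470). A fit with the replicate number as a block called 1, 0 and 0 members, so the block changed no call of a member. It called 11, 7 and 7 IGF pathway genes and 3, 3 and 2 genes of the combined list.

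Leaving out each sample in turn, H19 against pTRE ranged from 1.05 to 1.29 in R109K, 0.30 to 0.61 in KK and -0.26 to -0.016 in WT. Called members in WT against pTRE ranged from 0 to 1. IGF pathway genes ranged from 8 to 13, 4 to 6 and 7 to 9 in WT, R109K and KK. Genes of the combined list ranged from 2 to 4, 1 to 3 and 2 to 3. The log2 fold changes that crossed 0 were near it in every case: IGF2 (-0.032 to 0.12) and IGF2BP1 (-0.17 to 0.062) in R109K against pTRE, IGF2BP1 (-0.28 to 0.059) and IGF2BP2 (-0.067 to 0.014) in KK against WT, and IGF2R (-0.22 to 0.055) in R109K against KK. The cause of these movements was not tested.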

Other observations

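IGF1, the second IGF ligand, was at 8.11 CPM (101 reads) in WT replicate 2 and at 0.289 to 1.10 CPM (8 to 25 reads) in the other 11 samples. WT replicate 2 is the library with 58.7% of its reads outside annotated features, and WT against pTRE was not called for IGF1 (log2 fold change 2.07, SE 0.86, adjusted p = 0.0664 in edgeR).

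Within the let-7 axis, 2 genes named after their values were seen went in opposite directions. LIN28B, which blocks let-7 maturation, was at 22.8 to 32.5 CPM in pTRE and 13.5 to 19.7 CPM in the E2F1 lines, with log2 fold changes of -0.69, -0.78 and -0.70 in WT, R109K and KK (adjusted p of 0.00526, 0.00325 and 0.00519 in edgeR). HMGA2, a chromatin protein and let-7 target, was at 0.55 (adjusted p = 0.00146) in WT, 0.25 (adjusted p = 0.120) in R109K and 0.50 (adjusted p = 0.00289) in KK. Neither reached 2-fold. Of the 16 tested genes of that list, 1 was called in WT, against 11.8% of all tested genes.

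Of the 5 genes most like H19, COASY, VPS25 and NMT1 lie on chromosome 17. The 58 tested genes within 1 Mb of COASY had a median log2 fold change of 0.46 in R109K against pTRE, 0.28 in R109K against WT and 0.25 in R109K against KK, and 50 of the 58 were above 0 in the last. They were also above 0 in WT (0.21, 38 of 58) and KK (0.14, 36 of 58) against pTRE. VPS25 lies within 1 Mb of COASY, so the windows overlap, and its 55 neighbours had medians of 0.46, 0.24 and 0.24. The 38 within 1 Mb of NMT1 had medians of 0.18, 0.30 and 0.29. Over the 916 tested genes of chromosome 17 the medians were 0.0095, 0.0078 and 0.0016. These windows were found through likeness to H19, which was chosen by its values, so their medians are a description. Around DBNDD1 on chromosome 16 the median was -0.17, 0.017 and -0.048 over 25 genes, around UCP2 on chromosome 11 it was 0.12, -0.18 and -0.024 over 23 genes, and around H19 it was -0.11, -0.088 and -0.052 over 22.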
